A study of Mus musculus with 4 samples.

Results

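The regulators of mitochondrial and fatty acid genes described here are 9 genes: the PGC-1 coactivators Ppargc1a, Ppargc1b and Pprc1, the nuclear receptors Ppara, Ppard, Pparg and Esrra, and the DNA-binding factors Nrf1 and Gabpa. They were taken as every probe set whose platform annotation names that gene and no other, which gave 21 of 45101 probe sets, or 9 of 18193 genes with a probe set of their own. On these arrays the unit of measurement is the probe set, several short oligonucleotides matched to stretches of the same transcript. Crypt epithelium of the mouse jejunum was profiled on 4 arrays, to ask which transcripts differ in crypts without YY1, a zinc finger transcription factor. The knockout group, 2 arrays, came from YY1f/f mice with Vil-Cre-ERT2, in which the Villin promoter, active in intestinal epithelium, drives a Cre recombinase that tamoxifen switches on. The control group, also 2 arrays, is named only as control, and its alleles and Cre status are not stated. Crypts were released with EDTA and hold more than 1 cell type. The strain of both groups is labelled C57BL/6J enriched. All 4 arrays carry the same note of tamoxifen for 4 days, and its wording leaves unclear whether the controls received it. Effects of Cre-ERT2 or tamoxifen and of Yy1 deletion cannot be told apart here. Titles call the replicates biological, without naming animals, so that each p-value measures the spread between these arrays. The labels name no age.

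PGC-1 coactivators do not bind DNA themselves. They dock on nuclear receptors such as the PPARs and ERR alpha, the product of Esrra, and on factors such as NRF1, and raise transcription of genes for fatty acid oxidation and respiration. The PPARs sense fatty acids and bind as pairs with a retinoid X receptor. PPAR alpha drives fatty acid oxidation, PPAR delta acts in lipid use and in the intestinal epithelium, and PPAR gamma is best known from adipocytes. NRF1 and GABP alpha, the product of Gabpa, bind promoters of nuclear genes for mitochondrial proteins. YY1 is itself known as a DNA-binding partner of PGC-1 alpha. In the intestine, absorptive enterocytes are rich in mitochondria and take up dietary fat.

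Promoter sequences were found for 8 of the 9 genes, as 11 windows of 300 bases from RefSeq in the build GRCm38.p6; Ppargc1b had no entry. Each window was searched on both strands for the YY1 motif AANATGGC, the palindromic NRF1 motif, the GABP or ETS motif CCGGAAGT, the ERR element TCAAGGTCA, the PPAR direct repeat with 1 spacer base and the cyclic AMP element TGACGTCA. The ERR element and each repeat of the PPAR motif share the letters AGGTCA. The windows of Ppargc1a, Ppara and Gabpa are shown because Ppargc1a and Ppara fell in the knockout and because Ppara and Gabpa were the 2 genes whose windows held a match. The 250 bases before the start site are given 5′ to 3′ on the gene's strand, with matches in capitals. They lie at chr5:51567726-51567975 (minus strand), chr15:85735526-85735775 (plus strand) and chr16:84834874-84835123 (plus strand).
Ppargc1a: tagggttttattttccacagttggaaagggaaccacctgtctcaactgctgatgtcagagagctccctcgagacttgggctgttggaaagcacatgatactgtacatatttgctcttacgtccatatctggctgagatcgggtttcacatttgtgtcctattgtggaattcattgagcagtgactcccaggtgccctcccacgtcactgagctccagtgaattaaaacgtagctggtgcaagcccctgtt
Ppara: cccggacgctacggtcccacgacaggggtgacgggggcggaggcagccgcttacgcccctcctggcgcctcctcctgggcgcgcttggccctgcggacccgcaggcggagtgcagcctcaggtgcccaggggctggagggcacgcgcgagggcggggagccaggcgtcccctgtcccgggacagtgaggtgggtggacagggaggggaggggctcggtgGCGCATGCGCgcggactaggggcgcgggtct
Gabpa: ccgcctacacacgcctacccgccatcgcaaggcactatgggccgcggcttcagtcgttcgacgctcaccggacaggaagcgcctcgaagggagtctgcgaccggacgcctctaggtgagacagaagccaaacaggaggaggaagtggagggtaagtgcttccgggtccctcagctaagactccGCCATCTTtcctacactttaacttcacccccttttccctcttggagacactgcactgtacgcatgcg
The capitals in Ppara are an NRF1 match from -31 to -22 relative to the start site, which reads the same on both strands. The NRF1 motif was present in 1 of 11 member windows and in 4.6% of all 32851 windows. The capitals in Gabpa are a YY1 match on the opposite strand from -67 to -60, the 1 match among the 11 windows, against 6.05% of all windows. The other motifs were in none of the 11 windows; over all windows their shares were 3.89% for GABP, 0.423% for the ERR element, 0.0396% for the PPAR repeat and 1.79% for the cyclic AMP element. A match describes letters in this window and does not show binding.

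The loss of Yy1 was visible in both knockout arrays. The brightest Yy1 probe set read 1648 and 1681 in controls and 69.4 and 68.1 in knockouts. All 4 Yy1 probe sets were lower, by log2 differences between -4.31 and -1.37 (limma, adjusted p between 1.56e-05 and 0.00078). Whether they lie inside the floxed stretch was not analysed here. Array medians lay between 138.7 and 142.8, and the median of 27 control probe sets for Bacillus genes, used as background, between 31.9 and 35.6. Each of the 21 regulator probe sets lay above that range in every array, from 76.0 to 1888. Epithelial markers were bright in the controls: Vil1 (villin) stood at 6829 and 6754, and Lyz1, the Paneth cell lysozyme of the crypt base, at 11672 and 12081. Lgr5, the stem cell receptor, was dim, at 69.2 and 66.3 in controls and 63.2 and 59.6 in knockouts. A measure of RNA integrity moved with genotype. On the log2 scale the 3′ probe set of Gapdh exceeded its 5′ probe set by 1.44 and 1.40 in control arrays and 1.71 and 1.65 in knockout arrays (exact permutation test, two-sided, p = 0.333, the smallest that 2 arrays against 2 allow). Its part in the results below was not tested.

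The regulators divided into a deep fall, a set of small ones and genes with no detected difference. Ppargc1a fell most, Ppara and Ppard fell less, and Pprc1 rose. Ppargc1b and Esrra were lower in both knockout arrays but missed the threshold, and Pparg, Nrf1 and Gabpa did not pass it either. Over probe sets, 9 of 21 were lower and 1 was higher at an adjusted p under 0.05 (limma, adjusted over 45037 probe sets), where 20.0% of all probe sets were called, 10.9% higher and 9.09% lower. Read from the brightest probe set of each gene, 3 of 9 genes were lower and 1 higher, where 23.0% of all genes were called, 12.6% higher and 10.4% lower. The groups did not overlap in 18 of the 21 probe sets, and in 59.9% of all probe sets. Over genes this held for 8 of 9, and for 62.0% of all genes. Of the 9 lower probe sets 5 belong to Ppargc1a and 3 to Ppara, so they share their RNA and are not separate observations. Values below are intensities on a linear scale, and each log2 difference is knockout minus control on log2(intensity + 16) with its standard error (SE), from 2 arrays per group.

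**Figure D1:**
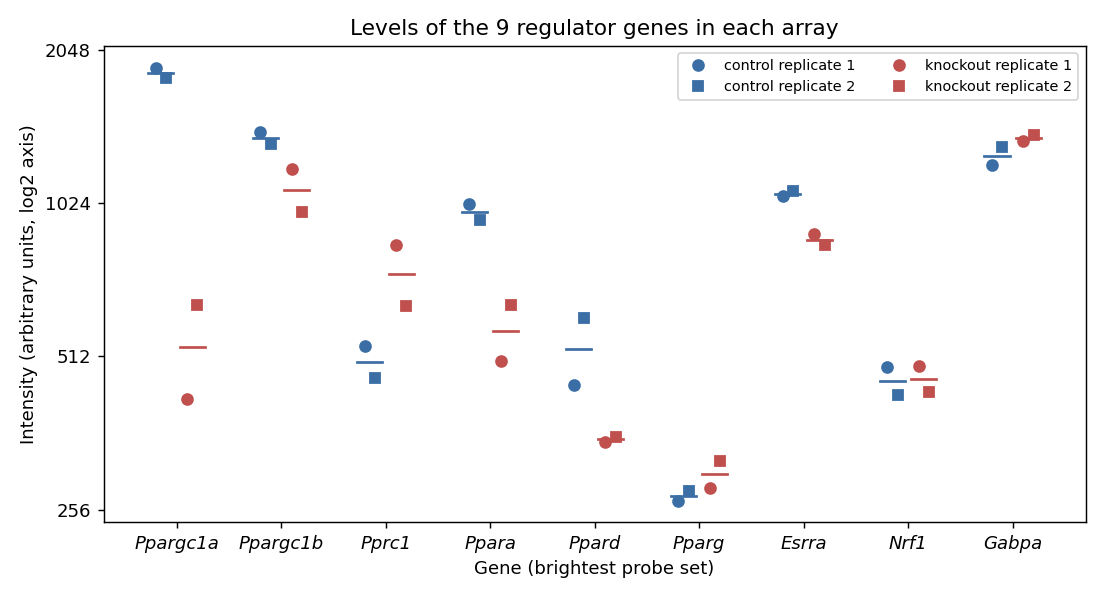
Intensity in each array for the brightest probe set of each of the 9 genes, on a log2 axis; circles are replicate 1, squares replicate 2, and bars the means of the 2 arrays of a group. Both knockout arrays of Ppargc1a lie between 421.9 and 646.2, below controls of 1888 and 1799; levels of different genes come from different probes and are not comparable.

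Ppargc1a, the gene of PGC-1 alpha, fell to between 25.3% and 30.8% of its control mean across its 5 probe sets. The brightest, 1460336_at, read 1888 and 1799 in the control arrays and 421.9 and 646.2 in the knockout arrays (log2 -1.79 ± 0.18, 3.45-fold lower, adjusted p = 0.00156). The groups lay far apart, and knockout replicate 1 was the lower of the 2 knockout arrays. Probe set 1456395_at, the dimmest, read 279.8 and 331.2 in controls and 76.0 and 78.8 in knockouts (log2 -1.78 ± 0.11, adjusted p = 0.000402), so here the knockout arrays were close together. The remaining probe sets fell by 1.94, 1.91 and 1.65 on the log2 scale. Among these, 1434100_x_at and 1434099_at were built on the same source sequence, and the suffix of the former marks probes that can bind other transcripts, so the pair counts as a single reading. Across the 5 probe sets the adjusted p by limma lay between 0.000402 and 0.00156. Among 18193 genes ordered from the lowest log2 difference, Ppargc1a stood at rank 126. In these bulk samples, fewer cells that express a gene and less of its RNA per cell cannot be told apart.

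Ppargc1b, the gene of the related coactivator PGC-1 beta, was measured with 1 probe set. It read 1409 and 1338 in controls and 1193 and 983.5 in knockouts (log2 -0.34 ± 0.12, 95% interval -0.62 to -0.05, adjusted p = 0.0979). Both knockout arrays were below both controls, but the difference did not pass the threshold over all probe sets. Here knockout replicate 2 was the lower array, the opposite order to Ppargc1a. The difference between the changes of Ppargc1a and Ppargc1b was not tested.

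Pprc1, the gene of PRC, a PGC-1-related coactivator known as a growth-induced regulator of NRF1 targets, was the 1 member that rose. It read 535.6 and 464.1 in controls and 846.1 and 642.9 in knockouts (log2 0.55 ± 0.15, 1.46-fold higher, adjusted p = 0.0397). Both knockout arrays were above both controls, with knockout replicate 1 the higher. The call was lost when control replicate 1 (adjusted p = 0.0821), control replicate 2 (0.196) or knockout replicate 1 (0.160, log2 0.36) was left out, and with a pseudocount of 1 (0.0713). Pprc1 thus went the other way from Ppargc1a within the same family, in both knockout arrays.

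Ppara fell with each of its 3 probe sets, by 1.55-fold to 1.77-fold. The brightest, 1439675_at, read 1021 and 948.6 in controls and 500.9 and 645.3 in knockouts (log2 -0.77 ± 0.14, adjusted p = 0.0085). Probe set 1457721_at went from 433.4 and 348.4 to 183.6 and 245.9 (log2 -0.82 ± 0.16, adjusted p = 0.0125). Probe set 1449051_at went from 645.5 and 530.5 to 322.4 and 427.4 (log2 -0.63 ± 0.16, adjusted p = 0.0292). In all 3, no knockout array reached a control array and knockout replicate 1 was the lower. The call for the brightest probe set was lost without control replicate 1 (adjusted p = 0.0553).

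Ppard fell with 1 of its 2 probe sets. Probe set 1425703_at read 449.7 and 610.2 in controls and 347.8 and 356.5 in knockouts (log2 -0.55 ± 0.15, adjusted p = 0.0378). The knockout arrays were close together and the controls far apart (530 ± 113, SD, n = 2). Probe set 1439797_at read 347.2 and 436.2 in controls and 327.7 and 291.1 in knockouts (log2 -0.32 ± 0.13, adjusted p = 0.147) and was not called. The call was also lost without control replicate 2 (log2 -0.34, adjusted p = 0.180), without knockout replicate 1 (0.128), without knockout replicate 2 (0.0844) and with a pseudocount of 1 (0.0673).

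Pparg was measured with 1 probe set that covers alternative transcripts of the gene, and showed no detected difference. It read 266.9 and 279.2 in controls and 283.1 and 319.2 in knockouts (log2 0.13 ± 0.11, 95% interval -0.12 to 0.38, adjusted p = 0.456). The lower knockout array lay just above the higher control. Adipocyte markers, the cells for which Pparg is best known, were dim: Adipoq stood between 73.7 and 92.9, Cidea between 47.8 and 61.4, and 0 of 8 measured markers were called by limma, with 1 lower at an unadjusted p under 0.05. Their summed level ran from 679.9 to 698.1 in controls and from 658.0 to 741.4 in knockouts.

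Esrra, the gene of ERR alpha, was lower in both knockout arrays with both of its probe sets, but neither passed the threshold. Probe set 1442864_at read 1054 and 1080 in controls and 888.0 and 845.0 in knockouts (log2 -0.30 ± 0.10, 95% interval -0.53 to -0.06, adjusted p = 0.0780). Probe set 1460652_at read 544.7 and 615.3 in controls and 462.9 and 446.4 in knockouts (log2 -0.34 ± 0.11, adjusted p = 0.0663). Arrays of a group were close together and the groups did not overlap. With the mean of both probe sets the gene passed (log2 -0.32, adjusted p = 0.0399), as it did with a pseudocount of 64 (log2 -0.28, adjusted p = 0.0345).

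Nrf1 gave no shared direction over its 4 probe sets, and none was called. The brightest, 1420978_at, read 487.7 and 429.3 in controls and 490.5 and 435.5 in knockouts (log2 0.01 ± 0.12, 95% interval -0.26 to 0.28, adjusted p = 0.953). Here the groups overlapped. Probe set 1434627_at was higher in both knockout arrays (263.3 and 319.1 against 400.9 and 340.8, log2 0.33 ± 0.13, adjusted p = 0.126), and 1424787_a_at was lower in both (344.8 and 320.3 against 308.6 and 302.9, log2 -0.11 ± 0.10, adjusted p = 0.493). In 1445914_at the groups overlapped (259.3 and 306.9 against 264.8 and 280.2, log2 -0.05, adjusted p = 0.826).

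Gabpa, whose window held the YY1 motif printed above, showed no detected difference. Its probe set 1450665_at read 1217 and 1319 in controls and 1353 and 1392 in knockouts (log2 0.11 ± 0.10, 95% interval -0.12 to 0.35, adjusted p = 0.502). Its other probe set, built on the same source sequence, read 711.6 and 704.5 in controls and 714.2 and 672.0 in knockouts (log2 -0.03 ± 0.10, adjusted p = 0.874). The groups of the former did not overlap and those of the latter did.

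**Figure D2:**
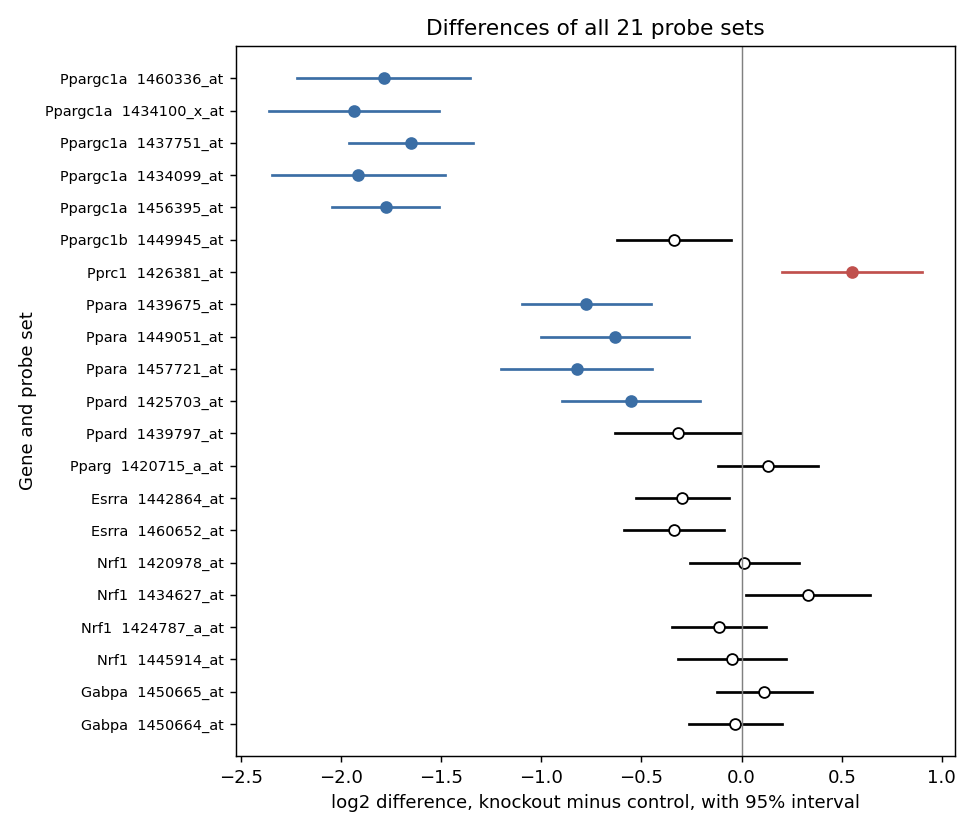
Log2 difference, knockout minus control, of all 21 probe sets with 95% intervals of the limma fit; filled points passed an adjusted p of 0.05 (blue lower, red higher) and open points did not. The 5 probe sets of Ppargc1a lie between -1.94 and -1.65, away from every other member.

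The fall of Ppargc1a and Ppara came with lower markers of mature enterocytes, the absorptive cells that leave the crypt. Of 21 measured markers 15 fell and 0 rose by limma, beside 10.4% of all genes lower and 12.6% higher. At an unadjusted p under 0.05 by limma, 20 were lower and 0 higher. The median log2 difference was -1.04, beside 0.01 for all genes. Alpi, the intestinal alkaline phosphatase, went from 3572 and 3785 to 773.2 and 1645, and Cubn, the vitamin B12 receptor cubilin, from 2196 and 1712 to 83.3 and 124.5. The summed level of the list was 134666 and 132322 in controls and 66035 and 94206 in knockouts, with no marker at the array's floor. Relative to the control mean, the median marker stood at -1.42 in knockout replicate 1 and -0.67 in replicate 2. Ppargc1a stood at -2.09 and -1.49 in the same arrays and Ppara at -0.95 and -0.60. All 3 were lower in knockout replicate 1, and Ppard, at -0.57 and -0.54, was barely so. Ppargc1b, at -0.20 and -0.47, and Esrra, at -0.26 and -0.33, were lower in replicate 2. The order of 2 arrays does not show which genes move with the markers. The part of enterocyte number in these differences was not tested.

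**Figure D3:**
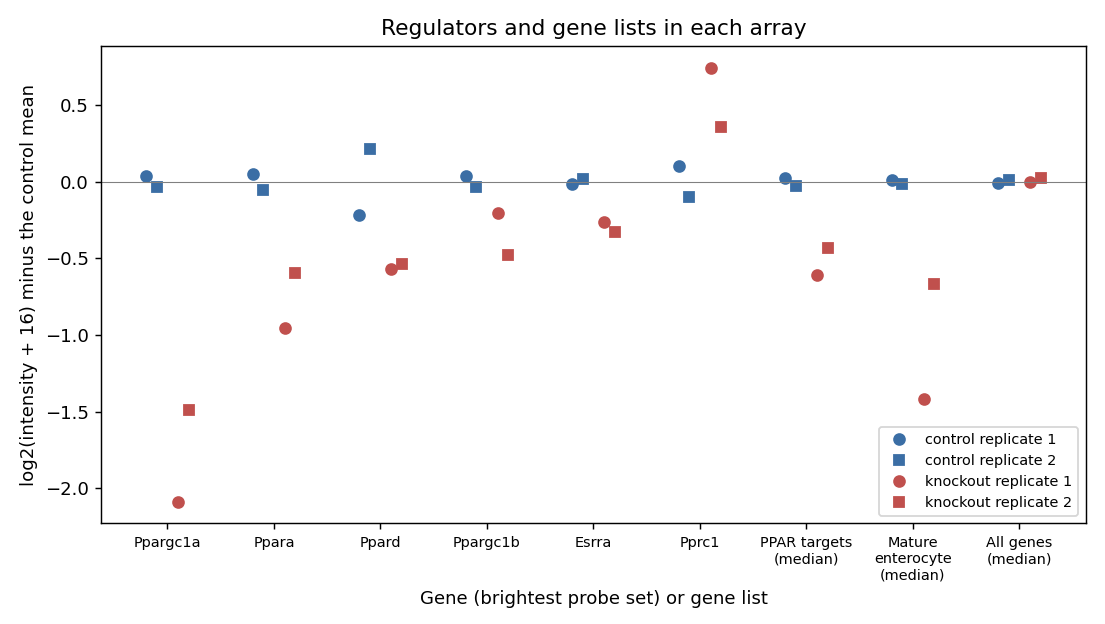
Log2(intensity + 16) of each array relative to the control mean, for 6 of the regulators (brightest probe set), for the median gene of the PPAR target and mature enterocyte lists and for the median of all genes; blue points are control and red points knockout arrays. Knockout replicate 1 is the lower for Ppargc1a (-2.09 against -1.49) and for the enterocyte median (-1.42 against -0.67), and barely for Ppard (-0.57 against -0.54). It is not the lower for Ppargc1b or Esrra, and the order of 2 arrays does not show which genes move together.

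Over all genes 23.0% were called, 12.6% higher and 10.4% lower. The share called was 41.7% for stem and cycling cell markers, 23.1% for secretory and 27.3% for immune markers. For muscle markers it was 25%, and for stromal and endothelial markers 9.09%. Of 12 measured stem and cycling cell markers 4 rose and 1 fell (median log2 0.07). Those that rose are genes of cycling cells: the mitotic kinase Cdk1 (0.97 ± 0.10), Top2a (0.70 ± 0.10), Mcm2 (0.56 ± 0.11) and Pcna (0.38 ± 0.10). The crypt base marker Olfm4 fell, from 5463 and 5279 to 3662 and 3332 (-0.62 ± 0.10). Ascl2 stood at 135.8 and 121.6 in controls and 132.5 and 116.8 in knockouts. Their summed level was 22775 and 23037 in controls and 25287 and 24873 in knockouts. Of 13 secretory markers Mmp7 (0.42 ± 0.10) rose and Dclk1 (-0.57 ± 0.11) and Clca1 (-0.47 ± 0.11) fell, and sums were 45783 and 47916 against 42403 and 45626. Without Clca1 the sums were 37480 and 39149 against 36641 and 39091, and the groups overlapped. Of 11 immune markers 3 fell, Cd74 (-1.05 ± 0.15), Cd3g (-0.69 ± 0.11) and Ptprc (-0.42 ± 0.12), while Cd3e was not called (-0.46 ± 0.17), with sums of 12180 and 12598 against 9832 and 11125. Without Cd74 the sums were 9167 and 9533 against 8589 and 9410, of which Lyz2 made up 7550 and 7845 against 7285 and 7977. Whether the Lyz2 probe set also reads the Paneth cell lysozyme Lyz1 was not analysed here, so these sums may not follow immune cells. Of 8 muscle markers Tagln (0.41 ± 0.12) rose and Mylk (-0.49 ± 0.11) fell, with sums of 4406 and 4382 against 3203 and 3482. Without Mylk the sums were 669.6 and 782.4 against 749.7 and 720.3. Acta2 lay near background, from 48.9 to 60.6, and Myh11 was not called (0.18 ± 0.12). Of 11 stromal and endothelial markers Pdgfra (-0.90 ± 0.10) fell, with sums of 1654 and 1775 against 1653 and 1473. Without Pdgfra the sums were 1546 and 1674 against 1607 and 1422, and the groups overlapped. Col1a1 stood at 137.4 and 151.0 against 131.6 and 133.7, with Col1a2 not called (-0.40 ± 0.17). No listed marker was at the floor of 1 in any array, and the part of these cells in the results was not tested.

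Textbook targets of the PPARs were lower. Of 37 measured targets 21 fell and 0 rose (limma; 29 lower and 0 higher at an unadjusted p under 0.05), a median log2 difference of -0.50, beside 10.4% of all genes lower and a median of 0.01. Eci1, an isomerase of mitochondrial fatty acid oxidation, read 2144 and 2031 in controls and 493.5 and 495.2 in knockouts (log2 -2.04 ± 0.10, adjusted p = 0.000191). Ech1, which handles unsaturated fatty acids, went from 1167 and 1103 to 150.7 and 227.0 (-2.51 ± 0.17). Acaa1b, a peroxisomal thiolase, went from 903.9 and 510.4 to 97.6 and 103.1 (-2.58 ± 0.23), although its near-identical neighbour Acaa1a (-0.47 ± 0.12) may share its probes. The knockout arrays of Eci1 and Acaa1b were close together. Over the whole list the median target stood at -0.61 in knockout replicate 1 and -0.43 in replicate 2, relative to the control mean.

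The PPAR target Cat, catalase, which removes the hydrogen peroxide of peroxisomal oxidation, went from 2698 and 2447 to 829.1 and 1049 (-1.45 ± 0.14). Pdk4, the kinase that spares pyruvate when fat is burnt, went from 382.3 and 223.8 to 78.6 and 129.4 (-1.40 ± 0.27), and Angptl4, a secreted lipase inhibitor, from 170.5 and 117.6 to 79.8 and 73.5 (-0.77 ± 0.16). Both are often used as readouts of PPAR activity, and their controls were widely spread. Acadm, the medium-chain acyl-CoA dehydrogenase, fell by 1.25 ± 0.13 on the log2 scale. The fatty acid uptake genes Cd36 (-2.00 ± 0.27), Slc27a2 (-1.01 ± 0.13) and Slc27a4 (-1.49 ± 0.22) fell. Cpt1a, the gatekeeper of mitochondrial fatty acid import, read 1246 and 1316 in controls and 789.9 and 1072 in knockouts and was not called (-0.47 ± 0.15, adjusted p = 0.0682). Further targets were not called, among them Acadvl (0.02), Etfa (-0.08), Eci2 (0.03), the carnitine carrier gene Slc25a20 (-0.22) and the peroxisome division gene Pex11a (-0.28). Acadl (0.21), Etfdh (0.17) and the dim Cyp4a14 (0.13) were not called either, with both knockout arrays above both controls. Of the 42 listed genes, 2 are also in the enterocyte list, and the markers of that list moved the same way.

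**Figure D4:**
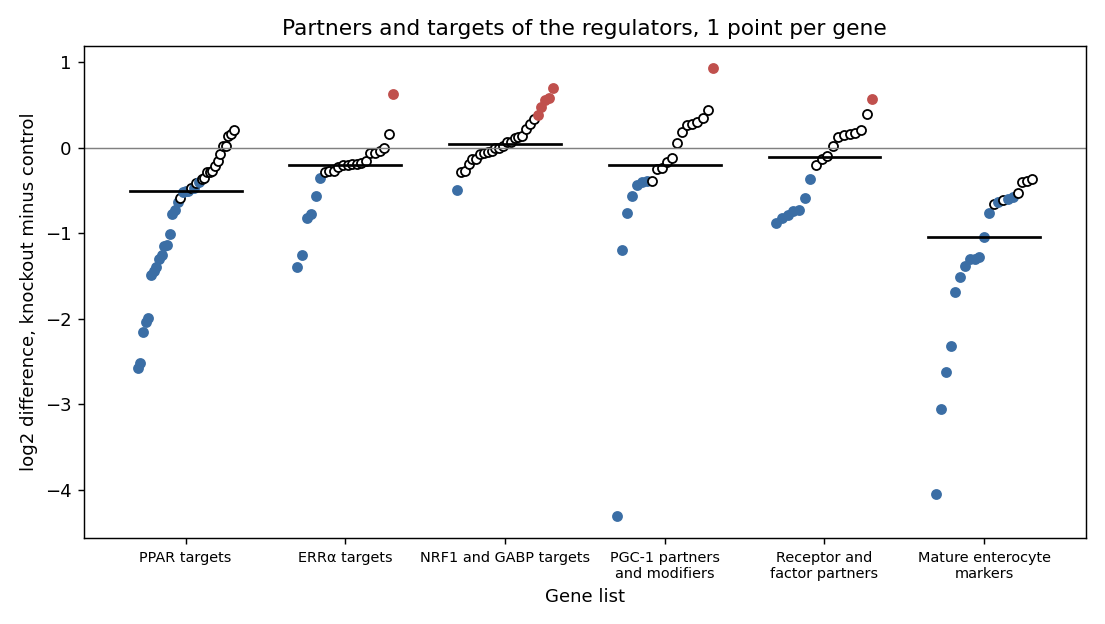
Log2 difference, knockout minus control, of each measured gene in 5 lists of partners and targets and in the mature enterocyte list; blue points fell and red points rose at an adjusted p under 0.05, open points were not called, and bars are list medians. The PPAR targets have 21 of 37 genes lower and a median of -0.50, and the NRF1 and GABP targets 5 higher and 1 lower with a median of 0.04.

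Of 22 measured targets of ERR alpha, 6 fell and 1 rose (median log2 -0.20), beside 10.4% of all genes lower and 12.6% higher. The count of lower targets was 13 with a trended and robust prior. The difference between this list and the PPAR targets was not tested. Apart from Acadm and Pdk4, which belong to both target lists, these were Uqcrc1, a core subunit of respiratory complex III (-0.77 ± 0.11), Vegfa, the angiogenic growth factor (-0.82 ± 0.11), Mfn2, which fuses mitochondria (-0.57 ± 0.11), and Ndufb5 of complex I (-0.35 ± 0.10). Slc25a4, an ADP/ATP carrier of the mitochondrial inner membrane, rose from 401.6 and 501.5 to 712.3 and 693.0 (0.63 ± 0.13), on a probe set whose suffix marks possible binding of other transcripts. The citrate cycle and ATP synthase members Idh3a (0.00 ± 0.10) and Atp5b (-0.20 ± 0.10) were not called. The rise of Slc25a4 was not called without control replicate 1 or without knockout replicate 1, each of which left 0 genes higher.

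Of 26 measured targets of NRF1 and GABP, 5 rose and 1 fell (median log2 0.04). The share called was 23.1%, beside 23.0% of all genes. Tfam, which packages and transcribes mitochondrial DNA, read 1149 and 1121 in controls and 1804 and 1575 in knockouts (0.56 ± 0.11, adjusted p = 0.0120). The import receptor genes Tomm20 (0.58 ± 0.11), Tomm34 (0.70 ± 0.10) and Tomm70a (0.47 ± 0.10) rose as well, and so did Ssbp1, which binds single-stranded mitochondrial DNA (0.39 ± 0.10). Tomm20 and Tomm70a were read on probe sets whose suffixes mark possible binding of other transcripts. Alas1, the entry enzyme of heme synthesis, fell (-0.49 ± 0.10). The cytochrome oxidase genes Cox4i1 (-0.13 ± 0.10) and Cox5b (-0.04 ± 0.10) and cytochrome c, Cycs (-0.06 ± 0.10), were not called. The count of 5 higher dropped to 2 without control replicate 1, to 1 without control replicate 2 and to 1 without knockout replicate 1. The fall of Alas1 was lost without each of these 3 arrays.

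Several cofactors and modifiers of PGC-1 fell. Of 20 measured 7 were lower, counting the deleted Yy1 itself, and 1 was higher (median log2 -0.20), beside 10.4% of all genes lower and 12.6% higher. The 1 higher became 3 with a pseudocount of 64, 3 with a trended and robust prior and 4 with the mean of a gene's probe sets. At an unadjusted p under 0.05 by limma, 10 of the 20 were lower and 5 higher. Ncoa1, the coactivator SRC-1, read 448.6 and 443.9 in controls and 197.4 and 173.7 in knockouts (-1.20 ± 0.11, adjusted p = 0.00101). Prkaa1, a catalytic subunit of the energy sensor AMPK that phosphorylates PGC-1 alpha, went from 211.7 and 219.7 to 124.5 and 116.2 (-0.77 ± 0.10), and the coactivator Ncoa2 fell by 0.56 ± 0.10. In each, the groups did not overlap. Mybbp1a, a nucleolar protein that represses PGC-1 alpha, rose from 1642 and 1484 to 3195 and 2802 (0.93 ± 0.11, adjusted p = 0.00259). The deacetylase Sirt1 (-0.12 ± 0.12), the acetyltransferase Kat2a (0.44 ± 0.19) and Creb1 (-0.17 ± 0.12), the factor that induces Ppargc1a in fasting liver, were not called. The count of 7 lower became 4 when control replicate 1 or knockout replicate 2 was dropped and 3 when control replicate 2 was. The count of 1 higher became 2 without control replicate 1.

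Among receptors and factors that pair or work with the members, 7 of 18 fell and 1 rose (median log2 -0.11), beside the same 10.4% and 12.6% of all genes. The 7 lower became 4 with a trended and robust prior. Rxra, the retinoid X receptor that pairs with PPARs, read 693.2 and 702.0 in controls and 428.4 and 493.8 in knockouts (-0.58 ± 0.11, adjusted p = 0.0106). Rxrb stood at 584.6 and 564.9 against 570.9 and 592.3 (0.02 ± 0.10), with overlapping groups. The thyroid hormone receptors Thra (-0.82 ± 0.12) and Thrb (-0.74 ± 0.12) and the glucocorticoid receptor Nr3c1 (-0.72 ± 0.12), which recruit PGC-1 alpha, fell. Creb3l3, which works with PPAR alpha in the fasting response, fell from 1634 and 1706 to 695.4 and 1166 (-0.88 ± 0.21), with knockout replicate 1 the lower as for Ppargc1a. Hnf4g fell from 4046 and 4099 to 1934 and 2860.5 (-0.79 ± 0.18, adjusted p = 0.0198), while Hnf4a was not called (-0.13 ± 0.10). Esrrg, a relative of Esrra, fell from 355.2 and 364.1 to 286.7 and 267.4 (-0.36 ± 0.10, adjusted p = 0.0438). Gabpb2, a partner subunit of GABP alpha, rose from 863.7 and 936.2 to 1342 and 1341 (0.57 ± 0.10, adjusted p = 0.00873), while Gabpb1 was not called (0.21 ± 0.11). The count of 7 lower became 3 when either control array was left out, and the rise of Gabpb2 was lost without control replicate 1.

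The genes closest in pattern to each called member were found as those with the smallest root mean square difference over the 4 arrays, each gene's log2 values taken relative to its own control mean. For Ppargc1a they were Khk, the ketohexokinase of fructose breakdown (0.05), Prss23, a serine protease (0.06), and Sec14l2, a lipid-binding protein (0.06). Khk went from 4050 ± 194 (SD) to 1201 ± 423 and fell by 1.78 on the log2 scale. For Ppara they were Slc3a2, the heavy chain of amino acid transporters (0.02), Tmcc1 (0.02) and Tnfaip3, an inhibitor of NF-kappa B signalling (0.02). For Ppard they were Gpr107 (0.03), Dio3os (0.06) and the sialic acid transporter Slc17a5 (0.06), and for Pprc1 Smg5 of nonsense-mediated decay (0.01), the kinetochore gene Zwilch (0.01) and the checkpoint gene Rad1 (0.02). With 4 arrays, many genes share any such pattern, and these are named as a description.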

How the data were processed

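Crypt epithelium RNA was labelled with biotin and hybridised to Affymetrix arrays, per the labels' protocols. The authors deposited 1 linear intensity per probe set and array. Its summary, background correction and normalization are not given in the sources used here, and the lowest value is exactly 1. No scaling was applied. Symbols came from GEO's platform annotation, updated by Entrez ID from RefSeq. Groups came from sample titles.

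Values were tested as log2(intensity + 16), which understates changes of dim genes, with limma 3.58.1 in R 4.3.3 (lmFit, eBayes, no block), in 1 fit over 45037 probe sets without the 64 array controls, with Benjamini-Hochberg adjustment. A gene was read from its probe set with the highest mean. In simulated data (200 changed of 45037 probe sets, 10 draws), 5% of 1.5-fold, 81.7% of 2-fold and 99.6% of 4-fold changes were recovered. In the arrays themselves 20.0% of probe sets were called, a far larger share than the simulation changed. The adjusted threshold depends on that share, so these recoveries do not give the sensitivity of the fit used here. The number of arrays limits the precision. Titles give replicate numbers but nothing that pairs arrays.

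The members and lists were chosen with earlier results of these data known. By rule, the text names every member, the 4 genes of each target or partner list with the smallest p in each direction among those called, the 3 genes nearest in pattern to each called member, and from each cell type list the first 2 genes and the one with the smallest p. Other genes were chosen after their values were seen. Of the rule's genes, Sis and Plin1 are not analysed here.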

Additional observations from a re-analysis of the deposited data

How the results depend on the processing

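The main counts were recomputed under 14 alternatives, with 1 choice changed at a time. Ppargc1a stayed lower and called under all 14, and Ppargc1b, Pparg, Nrf1 and Gabpa were called under none. With a pseudocount of 1, 0 member genes and 0 member probe sets were higher, and Pprc1 (log2 0.56) and Ppard (-0.57) were not called. Ppard was also not called with its dimmest probe set (-0.32) or the mean of its probe sets (-0.44, adjusted p = 0.0533), while Esrra was called with the mean (-0.32) and with a pseudocount of 64 (-0.28). The sign of Nrf1 turned with quantile normalization (-0.021) and with the dimmest probe set (-0.048), and that of Gabpa with the dimmest probe set (-0.031), none of them called.

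For the lists, a pseudocount of 64 gave 3 higher PGC-1 partners and 3 lower NRF1 and GABP targets. A trended and robust prior gave 13 lower ERR alpha targets, 3 higher PGC-1 partners, 4 lower receptor partners and 4 lower NRF1 and GABP targets. The dimmest probe set gave 0 higher ERR alpha targets, 2 higher and 2 lower NRF1 and GABP targets, 2 higher PGC-1 partners and 0 higher receptor partners. The mean of all probe sets gave 2 lower NRF1 and GABP targets, 4 higher PGC-1 partners and 2 higher receptor partners. The cause was not tested.

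Leaving out each array in turn, which assumes that the lone array of a group varies like the others, gave log2 differences between -0.95 and -0.60 for Ppara, -0.77 and -0.34 for Ppard, 0.36 and 0.74 for Pprc1 and -0.075 and 0.10 for Nrf1. Member genes and member probe sets higher ranged from 0 to 1, ERR alpha targets higher from 0 to 1, NRF1 and GABP targets higher from 1 to 5 and lower from 0 to 1, PGC-1 partners higher from 1 to 2 and lower from 3 to 5, and receptor partners higher from 0 to 1 and lower from 3 to 6. Over all probe sets, the 4921 higher and 4092 lower became fewer whichever array was dropped. The loss was least without knockout replicate 2 and much larger without any of the other arrays. With the replicate number as a block, PGC-1 partners higher and receptor partners higher were 2 each, and no member changed its call (Ppargc1a -1.79). Over probe sets, deviations of same-numbered arrays from their group means correlated at 0.0957. With 2 arrays per group, this value cannot tell whether same-numbered arrays share more than a number. Counts of member probe sets could not be given by the fit over 1 probe set a gene.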
